A study of Homo sapiens with 6 samples.

Results

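MHC class I molecules display peptides from inside the cell to CD8+ T cells, and the 9 genes described here encode parts of that display system. They were chosen by name as rows of the deposited count table, and all 9 were found among its 35474 genes. They are the heavy chains HLA-B, HLA-C and HLA-E, the light chain B2M, the peptide transporter subunits TAP1 and TAP2, the loading chaperone TAPBP, the trimming peptidase ERAP1 and the transcriptional coactivator NLRC5. The cells were A549, an established human lung adenocarcinoma line, so each group was a population of cultured cells of the same line with no immune cells added. The comparison set 3 libraries from cells transfected with siRNA against BAP18 (siBAP18) against 3 from cells given control siRNA (siCtrl), all collected 48 h after transfection. No interferon treatment is named for either group. BAP18 is a chromatin reader protein found in complexes that remodel nucleosomes and methylate histone H3. Which of the study's BAP18 siRNAs these libraries received is not given in the sources used here.

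A class I molecule is assembled in the endoplasmic reticulum from a polymorphic heavy chain, B2M and a short peptide. Proteasomes cut peptides from cytosolic proteins, the TAP1 and TAP2 heterodimer carries them across the membrane, tapasin (TAPBP) holds the empty heavy chain at the transporter, and ERAP1 trims the peptides to length. NLRC5 acts through RFX, CREB/ATF and NF-Y proteins bound at a shared promoter module, and interferons raise the whole set through factors such as IRF1. Loss of parts of this system is a known route by which tumors escape T cells.

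The libraries held between 46035635 and 53657450 counts in siCtrl and between 42094524 and 56548620 in siBAP18. BAP18, listed as C17orf49, had 743, 751 and 705 counts in siCtrl 1, 2 and 3 and 120, 137 and 108 in siBAP18 1, 2 and 3. Its log2 fold change was -2.65 (SE 0.111), so the labels and the targeted transcript pointed the same way. The defining epithelial markers (EPCAM, CDH1 and keratins) were all present, with a summed level of 21150 to 22979 CPM in siCtrl and 16892 to 21068 CPM in siBAP18. Most of that sum was KRT8 and KRT18, and the markers did not move together. CDH1 fell from a mean of 63.9 to 25.5 CPM (log2 fold change -1.32). EPCAM (-0.41), KRT8 (-0.37) and KRT18 (-0.24) were also lower, whereas KRT7 (0.43) and KRT19 (0.15) had positive log2 fold changes. CPM here are counts scaled to library size with edgeR's TMM factors. Of 10 immune cell markers, which would come with much class I RNA, 7 were in the table and summed to 2.73 to 2.89 CPM in siCtrl and 2.22 to 2.52 CPM in siBAP18. MS4A1 and FCGR3A were at 3 counts or fewer in every library. Endothelial markers summed to 0.984 to 1.15 CPM in siCtrl and 0.856 to 1.04 CPM in siBAP18. That sum held opposite changes, with PECAM1 lower (log2 fold change -1.53) and CDH5 higher (1.10), at no more than 45 and 36 counts. Fibroblast markers summed to 12.0 to 13.2 CPM in siCtrl and 9.15 to 10.2 CPM in siBAP18. Nothing in the labels says that the libraries of a group came from separate cultures, so p-values measure the spread between these libraries, which may be technical. In such bulk samples, fewer cells expressing a gene and less RNA per cell cannot be told apart.

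All 9 genes passed the filter on low counts and were among the 20776 genes tested. At an adjusted p under 0.05 (edgeR quasi-likelihood test, with p-values adjusted by Benjamini and Hochberg's method over all genes tested), TAP1 and NLRC5 were higher after BAP18 knockdown, and TAPBP, ERAP1, TAP2 and B2M were lower. The heavy chains HLA-B, HLA-C and HLA-E did not pass. These counts of 2 higher and 4 lower are to be read beside all genes tested, of which 24.5% were higher and 25.1% were lower by the same call. Among 9 genes these shares rest on few genes, and they were not read as a difference from the background. No member also had an absolute log2 fold change over 1, a size reached with the same adjusted p by 8.46% of all genes tested. The groups did not overlap for the same 6 genes, 2 higher and 4 lower, where 27.6% of all genes tested had every siBAP18 library above every siCtrl library and 29.0% had every one below. The members' median log2 fold change was -0.070, beside 0.0010 over all genes tested.

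**Figure D1:**
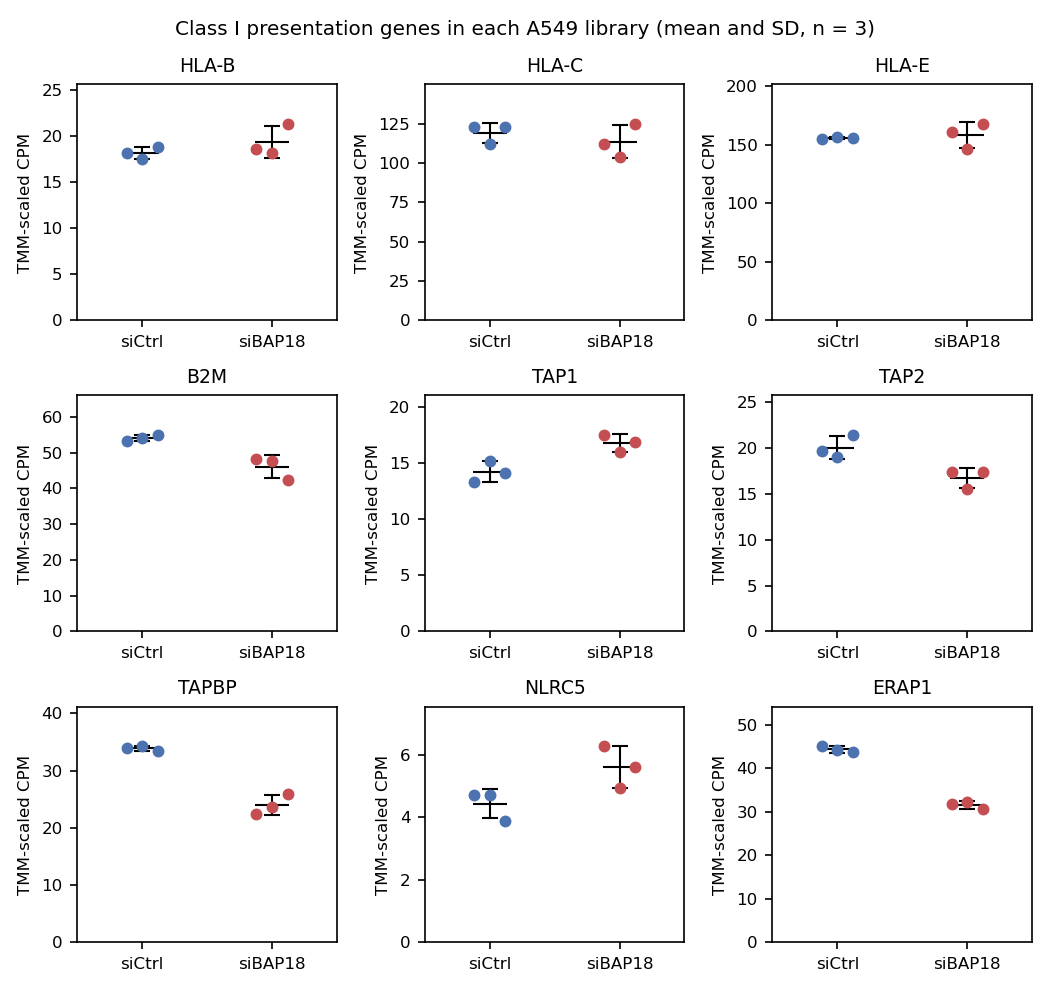
TMM-scaled CPM (vertical axes, from 0) of each of the 9 genes in the 3 siCtrl and 3 siBAP18 libraries, with points for libraries, the long bar for the mean and the short bars for 1 SD. TAPBP and ERAP1 fell from 33.9 to 23.9 CPM and from 44.3 to 31.5 CPM with no overlap, whereas the HLA-B, HLA-C and HLA-E points overlap.

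Promoter sequence was examined because these genes are known to share control elements. RefSeq promoter windows (GRCh38.p14, from 250 bases before to 50 after the annotated start) were held for 7 of the 9 genes, in 9 windows, and none was held for HLA-E or NLRC5. The X2 box core (TGACG) followed after 10 to 40 bases on the same strand by the Y box (ATTGG) has the order of these boxes in the module used by NLRC5. It was found in HLA-B, HLA-C and B2M, and in 1.06% of all 35116 windows. Here and below, a member is counted if any of its windows held the match, whereas the background share is of windows. The following stretches show it on the gene's own strand, with the X2 core and the Y box in capitals.
HLA-B, chr6:31357244-31357297, minus strand: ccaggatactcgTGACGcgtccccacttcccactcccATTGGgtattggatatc
HLA-C, chr6:31272156-31272209, minus strand: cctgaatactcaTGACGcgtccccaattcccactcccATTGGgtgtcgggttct
B2M, chr15:44711430-44711484, plus strand: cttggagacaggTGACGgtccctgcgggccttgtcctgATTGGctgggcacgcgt
The 3 genes that carry both boxes in this spacing include B2M, whose RNA was lower, and HLA-B and HLA-C, whose RNA did not pass the test. Wherever it stood on either strand, the X2 core was in 4 members (24.6% of all windows) and the Y box in 5 (34.6%).

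The interferon response element core was searched as GAAANNGAA on both strands and was in 5 members and 8.11% of all windows. The other spacing, GAANNGAAA, was added after the data were seen and was in 4 members and 7.66% of windows. A GAAA repeat can match both forms. Either form was in all 7 members that have a window, and in 14.5% of all windows. The stretches below carry these cores, in capitals, for the members whose RNA moved (as TTTC runs where the match was on the opposite strand).
TAP1, chr6:32853816-32853844, minus strand: ggccgctTTCGATTTCGCTTTCccctaaa
TAP2, chr6:32838782-32838809, minus strand: ggctgggGAAGCGAAAGCGAAagctgcc
TAPBP, chr6:33314077-33314105, minus strand: tttggagGAAAGTGAAAGTGAAaggagga
ERAP1, chr5:96807927-96807949, minus strand: ctccactTTCACTTTCggtcctg
B2M, chr15:44711366-44711394, plus strand: actctaaGAAAAGGAAACTGAAaacggga
TAP1, which was higher, and TAP2, TAPBP, ERAP1 and B2M, which were lower, all held the core. A match to the NF-kappaB consensus was in 6 members and 5.91% of all windows, and the E-box CACGTG was in no member and in 7.26% of all windows. These matches describe letters in the windows and not bound sites.

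**Figure D2:**
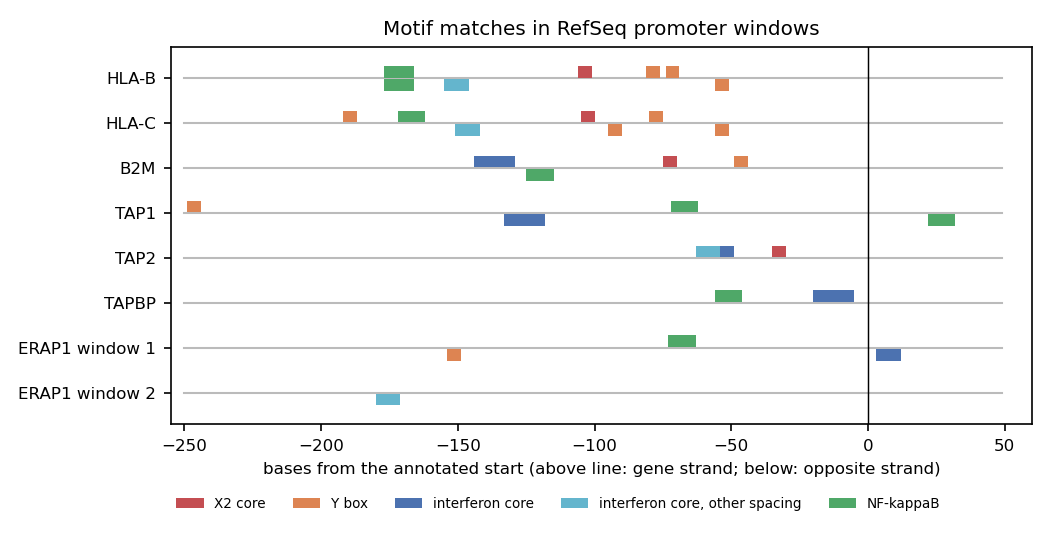
Motif matches in the RefSeq windows of 7 genes, with bases from the annotated start on the horizontal axis, blocks above a line for the gene's strand and below it for the opposite strand, and colors for the motifs. The X2 core and Y box lie close to each other at 106 to 45 bases before the start in HLA-B, HLA-C and B2M, and 1 TAP1 window without a match is not drawn.

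HLA-B and HLA-C are classical heavy chains that present peptides to CD8+ T cells, and HLA-E is a nonclassical heavy chain that shows mainly signal peptides to receptors on NK cells. HLA-B (chr6:31353872-31357188) had 18.1, 17.5 and 18.8 CPM in siCtrl 1, 2 and 3 and 18.5, 18.1 and 21.3 CPM in siBAP18 1, 2 and 3. The groups overlapped, and siBAP18 3 was the highest of the 6 libraries. Its log2 fold change was 0.087 (SE 0.0806, 95% interval -0.079 to 0.25, Benjamini-Hochberg adjusted p = 0.395, edgeR quasi-likelihood test).

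HLA-C (chr6:31268749-31272130) had 122.8, 112.0 and 122.8 CPM in siCtrl and 112.3, 103.7 and 125.0 CPM in siBAP18. The groups overlapped, since siBAP18 3 was the highest library and siBAP18 2 the lowest. HLA-C had a log2 fold change of -0.070 (SE 0.0727, 95% interval -0.22 to 0.080, Benjamini-Hochberg adjusted p = 0.451, edgeR quasi-likelihood test). Without siBAP18 3 it was -0.14 and passed (Benjamini-Hochberg adjusted p = 0.0436, edgeR quasi-likelihood test), so that library decided the call.

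HLA-E (chr6:30489467-30494205) had 155.0, 156.3 and 156.0 CPM in siCtrl and 160.5, 146.0 and 167.8 CPM in siBAP18. The siCtrl libraries lay close together, and the siBAP18 libraries fell on both sides of them. HLA-E had a log2 fold change of 0.021 (SE 0.0674, 95% interval -0.12 to 0.16, Benjamini-Hochberg adjusted p = 0.819, edgeR quasi-likelihood test), and without siBAP18 3 it was -0.021. For HLA-B, HLA-C and HLA-E the 95% intervals together ran from -0.22 to 0.25 on the log2 scale, and a p above the threshold does not show equal levels.

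The heavy chain genes are near copies of each other and differ between people, so reads can be split between their rows. Of the 50-base words in annotated transcripts, 2.72% of those of HLA-B, 5.38% of HLA-C and 3.94% of HLA-E also occurred in at least 1 of 15 other class I genes or pseudogenes. HLA-B also shares 18.0% of its exon bases with an overlapping antisense RNA, XXbac-BPG248L24.12, and whether the counting used strand is not given in the sources used here. The row values of HLA-B, HLA-C and HLA-E are therefore uncertain. The 16 heavy chain rows were then summed, which does not depend on how reads were split among them. Such a sum does not recover reads counted in none of these rows. Its level was 544.4, 520.4 and 549.4 CPM in siCtrl and 577.8, 528.8 and 620.4 CPM in siBAP18. The groups overlapped, with siBAP18 2 inside the siCtrl range and the other siBAP18 libraries above it. The log2 fold change of the sum was 0.098 (SE 0.0697, 95% interval -0.046 to 0.24, Benjamini-Hochberg adjusted p = 0.259, edgeR quasi-likelihood test). Without siBAP18 2 it was 0.16 and passed (Benjamini-Hochberg adjusted p = 0.0329, edgeR quasi-likelihood test).

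Within that sum the shares of the rows shifted between the groups. HLA-C made up 22.6%, 21.5% and 22.4% of the heavy chain counts in siCtrl and 19.4%, 19.6% and 20.1% in siBAP18, with no overlap. HLA-E made up 28.5%, 30.0% and 28.4% in siCtrl and 27.8%, 27.6% and 27.0% in siBAP18, also with no overlap. HLA-B stayed at a mean of 3.37% ± 0.0452 (SD, n = 3) in siCtrl and 3.36% ± 0.129 (SD, n = 3) in siBAP18.

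B2M (chr15:44711477-44718877) is the light chain shared by all class I molecules, which is needed for their folding and surface display. It had 53.1, 54.1 and 55.0 CPM in siCtrl and 48.2, 47.6 and 42.4 CPM in siBAP18. Every siBAP18 library was below every siCtrl library, and siBAP18 3 was the lowest. The B2M mean fell from 54.1 ± 0.923 to 46.1 ± 3.18 CPM (SD, n = 3 each), and in the fitted model B2M fell by 14.7%. Its log2 fold change was -0.23 (SE 0.0696, Benjamini-Hochberg adjusted p = 0.00774, edgeR quasi-likelihood test).

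TAP1 and TAP2 encode the subunits of the transporter and lie close together on chromosome 6, with PSMB8 between them. TAP1 (chr6:32845209-32853978) had 13.3, 15.2 and 14.1 CPM in siCtrl and 17.5, 15.9 and 16.8 CPM in siBAP18. The groups did not overlap, with siCtrl 2 and siBAP18 2 nearest to each other. The log2 fold change was 0.24 (SE 0.0823, Benjamini-Hochberg adjusted p = 0.0184, edgeR quasi-likelihood test), a fitted increase of 18.0%. The call was lost when some libraries were left out. In the edgeR quasi-likelihood test, the Benjamini-Hochberg adjusted p was 0.135 without siCtrl 1 (log2 fold change 0.19), 0.0646 without siCtrl 3 (0.23) and 0.0932 without siBAP18 1 (0.21).

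TAP2 (chr6:32821833-32838780) had 19.7, 19.0 and 21.4 CPM in siCtrl and 17.3, 15.5 and 17.4 CPM in siBAP18. All siBAP18 libraries were below all siCtrl libraries, in the direction opposite to TAP1. The log2 fold change was -0.26 (SE 0.0803, Benjamini-Hochberg adjusted p = 0.00841, edgeR quasi-likelihood test), and TAP2 fell by 16.6% in the fitted model. Without siCtrl 3 it was -0.21 and did not pass (Benjamini-Hochberg adjusted p = 0.0737, edgeR quasi-likelihood test). TAP2 shares 32.3% of its exon bases with a same-strand gene, XXbac-BPG246D15.9, whose row also had a log2 fold change of -0.26, so the TAP2 row is uncertain. TAP1 shares 9.96% of its exon bases with the antisense RNA PSMB8-AS1, whose row had a log2 fold change of 0.061 (Benjamini-Hochberg adjusted p = 0.805, edgeR quasi-likelihood test).

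The transporter subunits were also compared per length, as the ratio of deposited RPKM (reads relative to gene length and to the library's total). TAP1 to TAP2 was 0.945, 1.11 and 0.919 in siCtrl and 1.41, 1.43 and 1.35 in siBAP18. By this measure the 2 rows were close to equal in siCtrl, and TAP1 exceeded TAP2 in every siBAP18 library. The measure divides by the listed exon lengths, 4578 bases for TAP1 and 6390 for TAP2, and both rows overlap other genes. The ratio is therefore of use only between groups. The mean log2 ratio differed by 0.50, with p = 0.1 by an exact two-sided permutation test (0.12 after Benjamini-Hochberg adjustment over 6 ratios), and 0.1 is the smallest p that 3 against 3 libraries can give.

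The genes for the immunoproteasome subunits PSMB8 (chr6:32840717-32844703) and PSMB9 (chr6:32844136-32859585) lie in the same stretch as TAP1 and TAP2. On the log2 scale PSMB8 differed by 0.096 (adjusted p = 0.385) and PSMB9 by -0.11 (adjusted p = 0.515), both Benjamini-Hochberg values of the edgeR quasi-likelihood test. PSMB8 shares 21.2% and PSMB9 5.66% of its exon bases with PSMB8-AS1. By these calls the 4 neighbouring genes included 1 that rose, 1 that fell and 2 that did not pass. The TAP1 and TAP2 calls were each lost in some fits with a library left out.

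TAPBP (chr6:33299694-33314387) encodes tapasin, which bridges the transporter and the empty heavy chain and selects well-bound peptides. It had 33.9, 34.3 and 33.4 CPM in siCtrl and 22.4, 23.6 and 25.8 CPM in siBAP18. The highest siBAP18 library lay well below the lowest siCtrl library. In the fitted model TAPBP fell by 29.4%, with a log2 fold change of -0.50 (SE 0.0733, Benjamini-Hochberg adjusted p = 2.88e-06, edgeR quasi-likelihood test). This was the largest decrease among the 9 genes, and its 95% interval of -0.65 to -0.35 overlapped widely with that of ERAP1. The ratio of TAPBP to TAP1 in RPKM went from 2.31, 2.05 and 2.14 in siCtrl to 1.16, 1.34 and 1.39 in siBAP18, with no overlap (log2 difference -0.74, p = 0.1 by the exact two-sided permutation test, 0.12 adjusted over the 6 ratios).

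ERAP1 (chr5:96760810-96808100) encodes an aminopeptidase of the endoplasmic reticulum that shortens peptides to the length class I molecules hold. It had 45.1, 44.2 and 43.7 CPM in siCtrl and 31.8, 32.2 and 30.6 CPM in siBAP18. The libraries of each group lay close together and the groups were far apart. In the fitted model ERAP1 fell by 28.9%, with a log2 fold change of -0.49 (SE 0.0678, Benjamini-Hochberg adjusted p = 1.29e-06, edgeR quasi-likelihood test). ERAP1 shares 6.94% of its exon bases with opposite-strand genes, CAST and CTD-2260A17.1, which had log2 fold changes of -0.38 and -0.50. How much of those rows and of ERAP1 came from shared reads was not tested. TAPBP and ERAP1 kept their direction and passed the threshold under all 17 alternatives tried.

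NLRC5 (chr16:56989485-57083531) is the coactivator of class I genes and the least abundant of the 9, with 251, 219 and 182 counts in siCtrl and 342, 289 and 227 in siBAP18. In CPM it had 4.72, 4.71 and 3.89 in siCtrl and 6.28, 4.95 and 5.60 in siBAP18. The groups did not overlap, but siBAP18 2 lay just above siCtrl 1 and 2. NLRC5 had a log2 fold change of 0.33 (SE 0.126, 95% interval 0.075 to 0.59, Benjamini-Hochberg adjusted p = 0.0297, edgeR quasi-likelihood test), a fitted increase of 26.1%. The call was lost without siCtrl 3 (0.25, adjusted p = 0.165) and without siBAP18 1 (0.24, adjusted p = 0.177), both Benjamini-Hochberg values of the edgeR quasi-likelihood test.

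**Figure D3:**
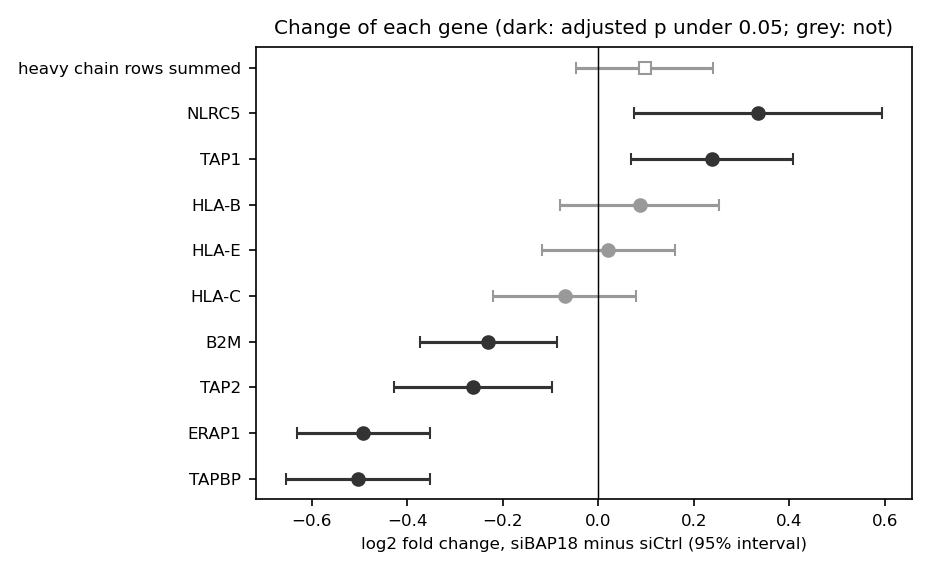
Log2 fold change (siBAP18 minus siCtrl, horizontal axis) of the 9 genes and of the summed heavy chain rows (open square), with bars for the 95% interval and dark points for an adjusted p under 0.05. TAPBP at -0.50 and ERAP1 at -0.49 are lowest, NLRC5 at 0.33 is highest with the widest interval, and the heavy chains lie across 0.

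Per length, the genes covered a wide range of levels. Their order rests on the listed exon lengths and on rows called uncertain above, those of the heavy chains and TAP2. In siCtrl, HLA-E was highest at 52.2 RPKM and HLA-C followed at 47.4 RPKM. B2M was at 8.86, TAPBP at 6.68, HLA-B at 6.01 and ERAP1 at 5.57 RPKM. TAP2 was at 3.13 ± 0.174 and TAP1 at 3.10 ± 0.236 RPKM (SD, n = 3), which do not differ beyond their spread, and NLRC5 was lowest at 0.358 RPKM. In siBAP18, HLA-B (6.41 RPKM) stood above TAPBP (4.73 RPKM), and TAP1 (3.66 RPKM) stood above TAP2 (2.62 RPKM). B2M relative to the sum of HLA-B, HLA-C and HLA-E was 0.0815, 0.0862 and 0.0839 in siCtrl and 0.0755, 0.0810 and 0.0615 in siBAP18. Each siBAP18 ratio was below each siCtrl ratio, by a mean of -0.22 on the log2 scale (p = 0.1 by the exact two-sided permutation test, 0.12 adjusted over the 6 ratios). The B2M row counts exons over 6089 bases, longer than its main transcript, so its RPKM is low for the number of molecules and the ratio is of use only between groups.

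**Figure D4:**
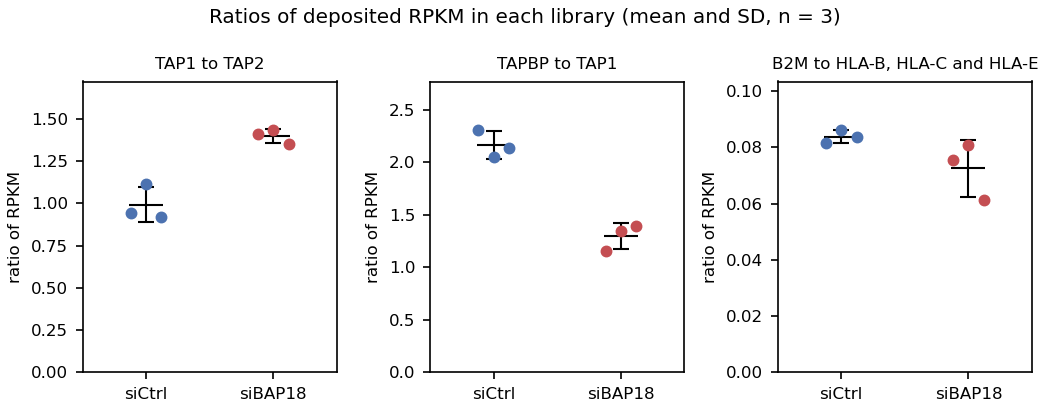
Ratios of deposited RPKM in each library (vertical axes, from 0) for TAP1 to TAP2, TAPBP to TAP1, and B2M to the sum of HLA-B, HLA-C and HLA-E, with points for the 3 siCtrl and 3 siBAP18 libraries, the mean and 1 SD. TAP1 to TAP2 went from a mean of 0.993 to 1.40 and TAPBP to TAP1 from 2.16 to 1.30.

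The other genes of the pathway were described from 8 lists, with 114 genes in the table and 94 tested. Of these, 20 were higher and 31 were lower at an adjusted p under 0.05, and 43 did not pass, with a median log2 fold change of -0.089. The background for these counts is again 24.5% higher and 25.1% lower among all genes tested. Except for the other class I rows, with none lower, and the class II genes, with none higher, each list held genes called in both directions. The genes written below as rising or falling passed this threshold.

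Peptide supply, the step before TAP1 and TAP2, had 13 genes tested, of which 3 were higher, 3 were lower and 7 did not pass (median 0.025). The constitutive proteasome subunit PSMB7 fell by 0.98 on the log2 scale and the cytosolic peptidase TPP2 by 0.87. PSMB6, another constitutive subunit, and THOP1, a peptidase that destroys peptides in the cytosol, each rose with a log2 fold change of 0.48. The immunoproteasome subunit PSMB10, which takes the place of PSMB7 in the particle, had -0.058 (Benjamini-Hochberg adjusted p = 0.657, edgeR quasi-likelihood test). In RPKM the mean ratio of PSMB10 to PSMB7 was 0.0726 in siCtrl and 0.138 in siBAP18, and that of PSMB9 to PSMB6 was 0.0339 and 0.0228. The numerators PSMB10 and PSMB9 did not pass their own tests, and both ratios gave p = 0.1 in the exact two-sided permutation test. PSMB8 to PSMB5 was 0.146 in siCtrl and 0.138 in siBAP18 (p = 0.3 by the same exact permutation test).

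The partners of TAPBP and ERAP1 in loading, trimming and folding moved in both directions. Of 13 tested, 4 were higher, 6 were lower and 3 did not pass (median 0.014). TAPBPL, a tapasin relative that edits peptides outside the loading complex, fell by 0.53, and LNPEP, a trimming aminopeptidase of endosomes, fell by 0.75 on the log2 scale. GANAB, a glucosidase that trims glycans of new glycoproteins, rose from 79.7 ± 2.22 to 193.1 ± 10.6 CPM (SD, n = 3, log2 fold change 1.28). B4GALT1, a galactosyltransferase, rose with 0.55.

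The regulators of these genes had 25 tested, 6 higher, 6 lower and 13 not passing (median 0.0054). RFX5, which binds the X1 box of the NLRC5-dependent module, fell from 79.4 ± 0.761 to 58.0 ± 3.13 CPM (SD, n = 3, log2 fold change -0.45). Of the CREB/ATF family that binds the X2 box, ATF1 rose with 0.76 and CREB1, named outside the rule after its values were seen, fell by 0.43 on the log2 scale. CIITA, the class II counterpart of NLRC5, had 0.42 (Benjamini-Hochberg adjusted p = 0.00845, edgeR quasi-likelihood test). IRF1, an interferon-induced activator of class I promoters, rose with 0.24. NFKBIA, the NF-kappaB inhibitor, rose with 0.67, and the Polycomb genes EZH2 and SUZ12 fell by 0.68 and 0.72 on the log2 scale. Among 9 interferon receptor and kinase genes, 6 were lower, 1 was higher and 2 did not pass (median -0.28). IFNAR1 (-0.55), IFNAR2 (-0.35) and JAK2 (-0.67) were lower, and IFNGR2 (0.38) was higher.

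The interferon-stimulated genes, a wider list of 45 with 36 tested, had 8 higher, 12 lower and 16 not passing (median -0.048). These are 22.2% higher and 33.3% lower, beside 24.5% and 25.1% of all genes tested, and were not read as a difference from them. MX1, an antiviral GTPase, rose from 3.15 to 7.33 CPM (log2 fold change 1.21), and GBP2, a guanylate-binding protein, rose with 0.79. EIF2AK2, the kinase activated by double-stranded RNA, fell from 56.7 to 25.6 CPM (log2 fold change -1.14), and OAS3, which makes the activator of RNase L, fell by 0.73 on the log2 scale. The 2 members that rose and the 4 that fell thus stood beside interferon-stimulated genes that moved in both directions.

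**Figure D5:**
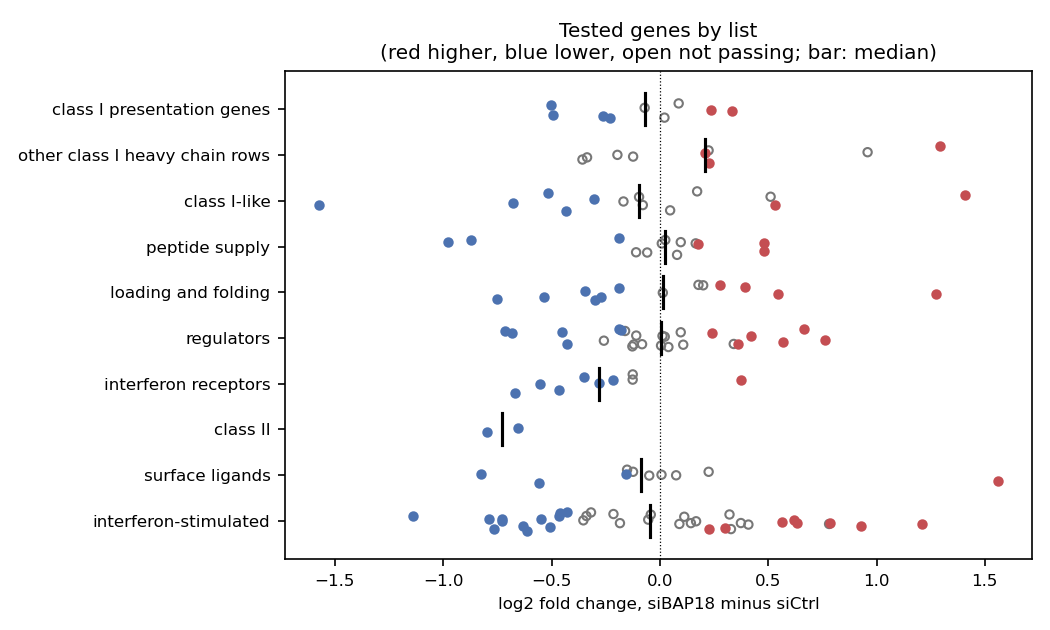
Log2 fold change (siBAP18 minus siCtrl, horizontal axis) of every tested gene in the class I presentation genes and in 9 further lists, in red for higher and blue for lower at an adjusted p under 0.05, open where the test was not passed, with a bar at each median. The presentation genes span -0.50 to 0.33, and the class I-like genes have the widest span, from -1.57 to 1.41.

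Relatives of HLA-B, HLA-C and HLA-E were described in the same way. The other class I rows, mostly pseudogenes, had 9 tested, 3 higher and 6 not passing (median 0.21), among them the pseudogene HLA-H with 0.21. HLA-K, also higher and chosen after its values were seen, was at 20, 10 and 14 counts in siCtrl and 41, 48 and 25 in siBAP18. HLA-F had -0.34 (Benjamini-Hochberg adjusted p = 0.0814, edgeR quasi-likelihood test) and HLA-F-AS1 had -0.20. Of 13 class I-like genes tested, 2 were higher, 5 were lower and 6 did not pass (median -0.096). MICB, a stress-induced ligand of the NK receptor NKG2D, had 8.78, 7.37 and 7.68 CPM in siCtrl and 2.19, 3.08 and 2.74 CPM in siBAP18. The siBAP18 values all lay below the siCtrl values, and the log2 fold change was -1.57 (SE 0.132, Benjamini-Hochberg adjusted p = 3.41e-10, edgeR quasi-likelihood test). PROCR, the protein C receptor, and HFE, which controls iron uptake and binds B2M, fell by 0.52 and 0.43 on the log2 scale. MR1, which presents vitamin B metabolites on a B2M-bound heavy chain, rose with 0.53. The other class I-like gene that was higher was RAET1L, an NKG2D ligand at 9 to 17 counts in siCtrl and 23 to 43 in siBAP18, chosen after its values were seen.

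Class II genes, which present peptides from outside the cell, had 13 rows, of which 8 were at 3 counts or fewer in every library and 2 were tested. Both tested genes were lower, namely HLA-DMB (-0.65) and HLA-DMA (-0.80), the subunits of the class II peptide exchanger. Among 10 tested surface ligands read by T or NK cells, 1 was higher and 3 were lower, with 6 not passing (median -0.086). ICAM1, an adhesion ligand of T cells, had 1.43, 1.46 and 1.33 CPM in siCtrl and 4.17, 4.06 and 4.24 CPM in siBAP18 (log2 fold change 1.56). CD58, the ligand of CD2, NECTIN1 and PVR, both nectin family members, fell by 0.82, 0.56 and 0.16 on the log2 scale.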

How the data were processed

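Poly(A) RNA of 6 A549 libraries (3 siCtrl, 3 siBAP18, 48 h) was sequenced. The authors deposited whole-number read counts per gene without normalization, and RPKM values per gene, which are the counts relative to the listed gene length and the library's total. The submitters' processing notes list the builds hg38 and GRCm38, and the exon positions in the tables are those of GRCh38. The aligner, the counting program and the use of strand are not given in the sources used here.

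Counts were tested with edgeR 4.0.16 in R 4.3.3. Genes passing filterByExpr were scaled by TMM, fitted by group and tested by the quasi-likelihood F test with Benjamini-Hochberg adjustment over the 20776 genes. The SE is the log2 fold change over the square root of F. DESeq2 1.42.0 and limma 3.58.1 served as alternatives, and the scripts were tested on simulated data. Same-numbered replicates did not deviate together (Pearson r -0.0166, 0.0506 and 0.00379 across genes), so the numbers entered only as an alternative. Ratios, promoter words and plots were made in Python 3.11.15 with numpy 2.4.6, pandas 2.3.3, scipy 1.17.1 and matplotlib 3.10.9. Promoter windows came from RefSeq.

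The 9 genes and all lists were chosen with earlier results of these data known. Named genes were the 9 members, C17orf49, up to 4 genes with the smallest adjusted p per list (average log2 CPM 1 or more), and PSMB8, PSMB9, PSMB10, IRF1, RFX5 and CIITA. Some genes that the rule names are not reported here. PSMB5 was named only as the partner in a ratio.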

Additional observations from a re-analysis of the deposited data

How the results depend on the processing

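The 17 alternatives were other scalings (DESeq2 size factors, upper quartile, total counts), DESeq2's Wald test, edgeR's likelihood ratio test, other filters on low counts, limma on log2(RPKM + 1) or log2(RPKM + 0.1), a replicate block and each library left out. With an absolute log2 fold change over 1 required as well, 0 members were higher, 0 were lower, and 4 and 1 of the other pathway genes were. The count of higher members was 1 in both limma fits with a mean RPKM of at least 0.5, where NLRC5 was not tested, and 0 in limma without a filter, where 2 were lower. It ranged from 0 to 2 with a library left out, being 1 without siCtrl 1 and 0 without siCtrl 3 or siBAP18 1. The count of lower members ranged from 3 to 5 over the same fits. The log2 fold change of HLA-E ranged from -0.021 without siBAP18 3 to 0.076 without siBAP18 2. The summed heavy chains ranged from 0.042 to 0.16 and passed without siBAP18 2. B2M did not pass in limma on log2(RPKM + 1) without a filter (-0.20), nor did TAP1 (0.19), TAP2 (-0.19) and NLRC5 (0.098). With the replicate block, 2 members were higher and 4 lower, and 23 and 33 other pathway genes were, so it changed no count by over 1.5 times. Why these calls changed was not tested, beyond the fits that lacked NLRC5. Fits with a library left out had a smaller group, and without siBAP18 3 the lower members numbered 5. The other scalings moved the median of all genes by less than 0.02. TAP1, TAP2, HLA-B and ERAP1 overlap other genes, and NLRC5 rested on 182 to 342 counts.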
